A study of Homo sapiens with 2 samples.

Results

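Among the T-to-C sites that HA-METTL14 PAR-CLIP placed on the nuclear chromosomes of HepG2 cells, 243 stood alone and still carried a high score. They were chosen by 2 values of the deposited list: no other listed site on either strand within 20000 nt, and an authors' score of 50 or more. The 31 sites of the mitochondrial chromosome, 13 of them at 50 or more, were left out. The 243 sites were 4.06% of the 5981 listed sites (95% Wilson interval 3.59 to 4.59%) and 7.49% of the 3244 lone nuclear sites (6.63 to 8.45%). The other 3001 lone sites, with scores of 3 to 49, served as the comparison. Of the 2706 nuclear sites that did have another site within 20000 nt, 19.6% (530 sites) scored 50 or more. Both percentages depend on the score limit that the rule used, so they are given as a description and their difference was not tested.

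HepG2 is an established human hepatocellular carcinoma line. The cells expressed METTL14 from a lentiviral vector, with an HA tag at one end of the protein and EGFP at the other; puromycin and sorting for bright GFP were used to keep strong expressers. The labels call this overexpression, and the METTL14 level was not measured here. Both libraries, replicates 1 and 2, came from this 1 group, after 16 h in 200 µM 4-thiouridine and 3 rounds of irradiation at 365 nm. No input, untagged or antibody-free library was analysed here, and the list gives 1 value per site over both libraries. Intervals below therefore cover the counting of sites only, and no value has a spread between replicates.

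METTL14 is the RNA-binding partner of METTL3, the catalytic subunit of the main complex that writes N6-methyladenosine into messenger RNA and other polymerase II transcripts. In PAR-CLIP, 4-thiouridine that has been crosslinked to a protein is read as C, so a T-to-C change marks a uridine near the bound protein. A transcript bound along its length tends to leave several sites. An isolated high-scoring site can also come from a short abundant RNA, such as a transfer RNA, a spliceosomal RNA, a small nucleolar RNA (a guide for ribosomal RNA modification) or a Y RNA, which has room for few sites and is a common passenger in CLIP libraries. Which RNAs the 243 sites belong to was not tested. The submitters' processing notes name the genome build hg19, while the annotation at hand is on GRCh38. No genome sequence was at hand, so neither genes nor bases were assigned. Positions below are 1-based on hg19 and give the middle base of the deposited interval of 201 nt.

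The scores of these isolated sites spanned more than 3 orders of magnitude. The score is a whole number set by the authors, and no source used here states its unit. Since it chose the sites, it is described without a test. The lowest score was 50, the median 147, the quartiles 82.5 and 377.5, and the highest 183841. In all, 85 sites scored from 50 to under 100, 61 from 100 to under 200, 45 from 200 to under 500, 25 from 500 to under 1000, 20 from 1000 to under 10000 and 7 scored 10000 or more. The median of the other lone sites was 4, and 990 of them (33.0%) sat at the lowest listed score of 3.

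**Figure D1:**
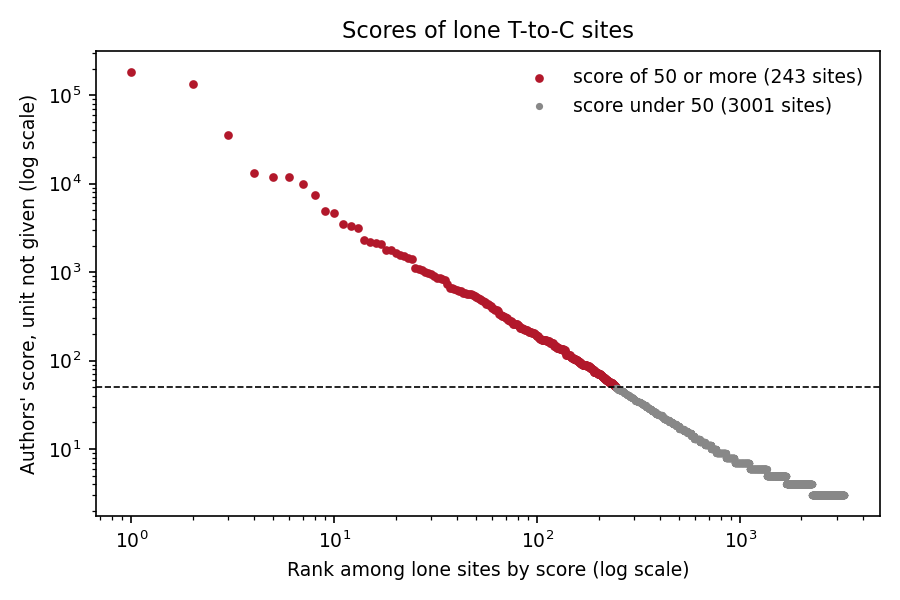
Each point is 1 of the 3244 lone sites, ranked by the authors' score (both axes on a log scale); red points score 50 or more and grey points less, and the dashed line is at 50. The scores fall without a gap at 50, and the first 2 sites, at 183841 and 132733, stand above the next at 35473.

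A score of 50 did not mark a break in the list. Among lone sites just inside the limit, 1 scored 50, at 67189180 on chromosome 16 (minus strand), and 9 scored 50 to 54. Just outside it, 22 scored 45 to 49. The first 3 in genome order of the 4 lone sites at 49 lay at 169878756 on chromosome 1 (minus), 131280623 on chromosome 2 (plus) and 8775541 on chromosome 3 (plus).

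A handful of positions held most of the summed score at isolated sites. The rule chose the 243 sites by score, so their 95.8% of the summed score of all lone sites follows largely from it. They held 6.01% of the summed score of the whole list. The high-scoring sites that had near neighbours held 92.6% of the whole. Within the 243, the first site carried 37.2% of their summed score, the first 2 carried 64.0%, the first 10 carried 84.2% and the first 20 carried 89.0%.

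The site with the highest score, 183841, was at 21265477 on the plus strand of chromosome 22. It ranked 11th among all listed sites, and its nearest listed neighbour, 86.6 kb away on the same strand, had a score of 3. The runner-up, at 36066620 on chromosome 19 (plus), scored 132733, and its nearest neighbour, 28.5 kb away, had a score of 5. So both positions had a nearest listed site at or near the bottom of the score range. This was usual for lone sites: the nearest site had a median score of 5 for the 243 and for the others. The first of these scores was 1.39 times the second, and the second was 3.74 times the one that followed.

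Next came 22130021 on chromosome 7 (minus) with a score of 35473, followed by 203211038 on chromosome 2 (minus) with 13235 and 110076516 on chromosome 13 (minus) with 12050. The sixth and seventh were 3867513 on chromosome 6 (minus) with 11806 and 90341434 on chromosome 14 (minus) with 10029. These 7 were the isolated sites at 10000 or more, and each lay on a chromosome of its own. The site on chromosome 13 had no other listed site within 1 Mb, and the one on chromosome 14 had its nearest 892 kb away. On chromosome 6 the nearest site, 53.8 kb away on the same strand, was itself one of the 243, with a score of 137.

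Scores of 3181 to 7437 were found at 6 sites: 45242261 on chromosome 1 (plus, 7437), 37557397 on chromosome 17 (plus, 4911), 296573 on chromosome 12 (minus, 4696), 8373755 on chromosome 19 (plus, 3531), 89627909 on chromosome 16 (plus, 3293) and 80411683 on chromosome 10 (minus, 3181). The last 7 of the first 20 scored 1648 to 2318. They were 59369279 on chromosome 13 (minus, 2318), 117770054 on chromosome 2 (plus, 2189), 6587482 on chromosome 19 (plus, 2133), 86781638 on chromosome 7 (minus, 2097), 132437882 on chromosome 7 (plus, 1784), 50850568 on chromosome 12 (plus, 1783) and 126674703 on chromosome 12 (plus, 1648). Chromosomes 7, 12 and 19 each had 3 of the first 20.

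The second value that varied strongly among these sites was the number in the deposited name. Names in the list end in a number from 1 to 5981, each used once, after the name of the site caller rbsSeeker. No source used here states what the caller numbered by. Numbers followed the score only in part: over all listed sites Spearman's rho of score and number was -0.46, and sites of equal score came in long unbroken runs, such as the 1012 sites of score 3 numbered 2610 to 3621 and the 531 sites of score 3 numbered 4242 to 4772. Both values come from 1 caller and the same reads, so the numbers are described here without a test.

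Had the list been numbered strictly by score, the 786 listed sites scoring 50 or more would have taken the numbers 1 to 786. Of the 243 isolated sites, 182 had such an early number and 61, 25.1% (20.1 to 30.9%), a later one. Among the 530 high-scoring sites with near neighbours, 160 were late, 30.2% (26.4 to 34.2%). For the 182 early sites rho of score and number was -0.81, and for the 61 late sites it was -0.03. The early sites thus followed the order of the scores closely and the late ones did not, though the split was itself made on the number.

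**Figure D2:**
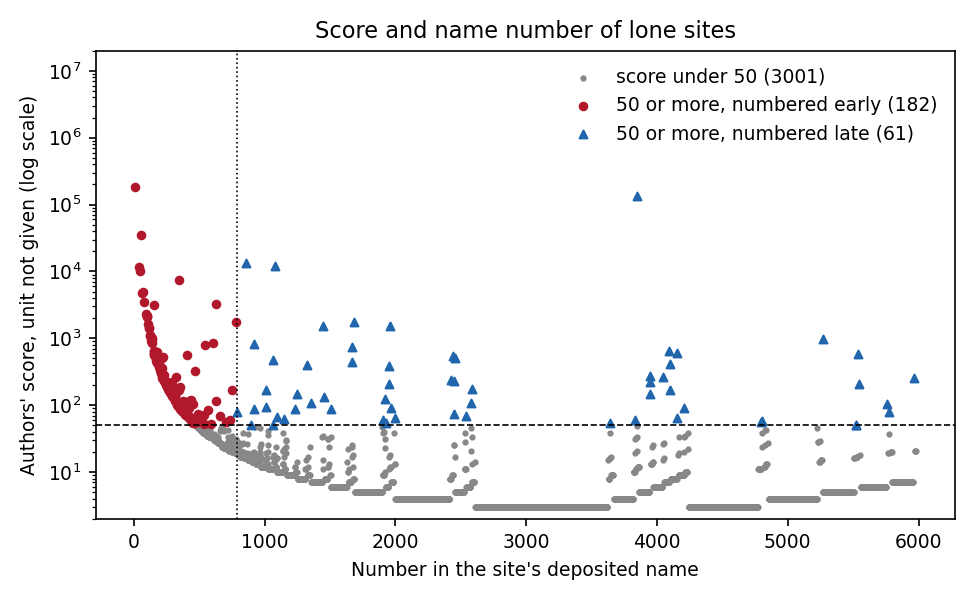
Each point is a lone site, placed by the number in its deposited name and its score (log scale); red circles are the 182 sites of 50 or more numbered up to 786, blue triangles the 61 numbered later, and grey points the 3001 lone sites under 50. The dashed line marks a score of 50 and the dotted line the number 786; red circles mostly follow a falling curve, while triangles rise in narrow columns, up to 132733 at number 3848.

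Each score was also set against those of the sites numbered next to it: it was divided by the median score of the 10 sites numbered just before and the 10 just after. This ratio had a median of 0.97 over the early sites and 12.0 over the late ones, and 157 of the 182 early sites were within 1.5 times their numbered neighbours. In all, 37 of the 243 sites scored at least 10 times their numbered neighbours, 32 of them late and 5 early. Of the 3001 other lone sites 0 did, but their scores end at 49 by the rule. That limit largely fixes this count in advance, so it serves as no comparison. The count was not made for the 530 high-scoring sites with near neighbours, so such ratios are not shown to be particular to isolated sites. The ratio was chosen after the values had been seen. A high ratio at late sites follows in part from their selection, since they score 50 or more by the rule and the listed sites numbered above 786 mostly score less.

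Among the first 20, 7 sites scored at least 10 times their numbered neighbours. The site on chromosome 19 with a score of 132733 carried the number 3848, where the numbered neighbours had a median score of 12. On chromosome 2, 203211038 (13235) carried the number 861, beside a median of 17, and on chromosome 13, 110076516 (12050) carried 1078, beside 18.5. These scores were the second highest and both of those that came next after the site on chromosome 7. The other 4 were 45242261 on chromosome 1 (7437, number 344, median 109.5), 89627909 on chromosome 16 (3293, number 627, median 31), 132437882 on chromosome 7 (1784, number 1687, median 8) and 50850568 on chromosome 12 (1783, number 785, median 19). By contrast the highest site, on chromosome 22, had the number 9 beside a median of 174313.

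Lower down, the same split recurred, in examples picked after their values were seen. The site at 96851077 on chromosome 14 (plus) scored 985 at number 5269, beside a median of 10. At 49050539 on chromosome 12 (minus) the score was 588 at number 5540, beside 18. On chromosome 17, 62223514 (plus) scored 541 at number 2443, beside 29.5, and on chromosome 6, 31804918 (plus) scored 439 at number 1669, beside 17.5. Another late site lay within 5 numbers for 27 of the 61. The same count was not made for other listed sites, so bunching is not shown to be particular to these sites. One such bunch joined 153725229 on chromosome 3 (658, number 4095), 71792342 on chromosome 16 (170, number 4096) and 147834538 on chromosome 1 (418, number 4100), so sites of unequal score on different chromosomes took nearly equal numbers.

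Late and early sites were set side by side without a test, since the split was made after the numbers had been seen. The median score was 147 for the late and 144 for the early sites. Late numbers were found at 37 of the 158 sites scoring 100 or more (23.4%) and at 24 of the 85 below that (28.2%). Late sites held 35.5% of the summed score of the 243, but 11.8% without the site on chromosome 19 that scored 132733. The plus strand held 34 of the 61 late sites, 55.7% (43.3 to 67.5%), and 93 of the 182 early ones, 51.1% (43.9 to 58.3%). The nearest listed site was a median of 155 kb away from late sites and 218 kb from early ones. Late sites were found on 22 of the 24 chromosomes, all but chromosomes 22 and Y.

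The next question was whether the isolated high-scoring sites differed from the other lone sites in what the rule had not used. Strand did not differ beyond counting error. Of the 243 sites, 127 were plus-strand and 116 minus-strand sites, 52.3% plus (46.0 to 58.5%), against 1566 of 3001 other lone sites, 52.2% (50.4 to 54.0%). The difference was 0.08 percentage points (Newcombe 95% interval -6.43 to 6.53, two-sided Fisher's exact p = 1, adjusted p = 1 over the 2 shares tested). A difference of up to about 6.5 points in either direction was thus within the interval.

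The strand of the nearest listed site did not differ beyond counting error either. Sites of 1 transcript share its strand, so this share bears on whether an isolated site lay in the same transcript as its nearest neighbour. The nearest site was on the same strand for 129 of the 243, 53.1% (46.8 to 59.3%), and for 1645 of the 3001 other lone sites, 54.8% (53.0 to 56.6%). The difference was -1.73 points (-8.25 to 4.70, two-sided Fisher's exact p = 0.639, adjusted p = 1). Neighbouring lone sites can be each other's nearest site, so these p-values treat as independent what is partly shared.

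By distance, the same-strand share of the 243 was highest for near neighbours, where few sites were counted. It was 23 of 35 (65.7%, 49.2 to 79.2%) with the nearest site 20 to 50 kb away and 23 of 46 (50.0%, 36.1 to 63.9%) at 50 to 100 kb. Beyond that it was 22 of 39 at 100 to 200 kb, 33 of 67 at 200 to 500 kb, 13 of 28 at 500 to 1000 kb and 15 of 28 farther away. The share of the other lone sites did not fall steadily with distance. It was 61.0% (56.8 to 65.1%) at 20 to 50 kb, 53.8% at 50 to 100 kb and 58.9% (54.9 to 62.9%) at 100 to 200 kb. It was then 50.3% at 200 to 500 kb, 48.1% (42.8 to 53.4%) at 500 to 1000 kb and 57.3% (51.2 to 63.2%) beyond. In every band the share of the 3001 lay inside the wider interval of the 243.

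**Figure D3:**
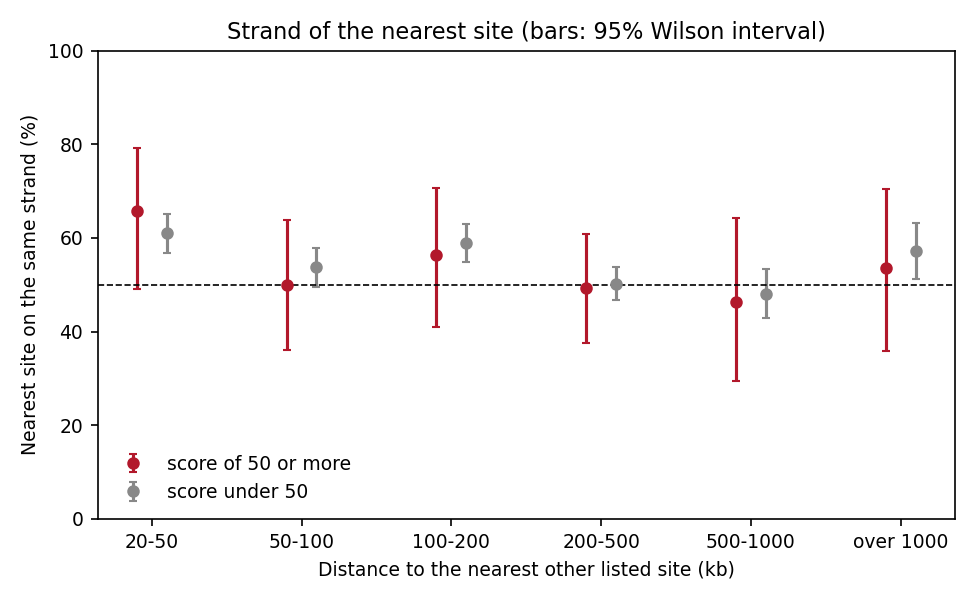
Share of lone sites whose nearest listed site is on the same strand (vertical axis, %), by the distance to that site (horizontal axis, kb), for the 243 sites scoring 50 or more (red) and the 3001 scoring less (grey); bars are 95% Wilson intervals and the dashed line is at 50%. The intervals of both kinds overlap in all 6 bands, and the highest red point is 65.7% at 20 to 50 kb.

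Isolation itself was part of the rule and is given as a description. The nearest listed site was a median of 207 kb away from the 243 sites (quartiles 71.2 and 469 kb) and 164 kb from the other lone sites (67.5 and 413 kb). No other site lay within 100 kb of 162 of the 243 (66.7%), against 64.3% of the others, and none within 1 Mb of 28 (11.5%), against 8.66%. The median number of other sites within 1 Mb was 4 for both. The nearest site was mostly of low score: it had a median score of 5 for both kinds, and scored 50 or more for 25 of the 243 (10.3%, 7.07 to 14.7%) and for 260 of the others (8.66%, 7.71 to 9.72%).

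The 5 sites farthest from any other were of ordinary score. They lay at 37191683 on chromosome 18 (minus, score 374, nearest site 2824 kb away), 78761662 on chromosome 1 (plus, 72, 2506 kb), 30648774 on chromosome X (plus, 139, 2411 kb), 154823187 on chromosome 2 (plus, 227, 2376 kb) and 63040322 on chromosome 18 (minus, 209, 2114 kb). Of these, the site on chromosome 2 had a late number, 2447. Among the first 20 by score, 86781638 on chromosome 7 was the most remote, 2073 kb from the next site.

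The spacing among the 243 sites depends on their number and on the isolation rule, so it is given as a description. Among 219 pairs of neighbours within the 243, the median distance was 8.45 Mb, and 5 pairs lay within 100 kb, 4 of them on 1 strand. The closest pair was 22871473 and 22892203 on chromosome 11, 20.7 kb apart on the minus strand, with scores of 374 and 65. The next were 96289178 and 96327928 on chromosome 15 (38.8 kb apart, scores 86 and 90) and 126773667 and 126813754 on chromosome 9 (40.1 kb apart on opposite strands, scores 301 and 87). Within 1 Mb there were 22 pairs, 13 on the same strand.

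All 24 nuclear chromosomes held at least 1 of the sites. Chromosome 11 held most, with 21, followed by chromosome 1 with 18, chromosome 7 with 17, chromosome 5 with 15 and chromosome 2 with 14. The fewest on an autosome were 5, on chromosomes 21 and 22, and chromosome Y held 1. As a share of a chromosome's lone sites they made up 12.0% (7.98 to 17.6%) on chromosome 11, 14.3% (6.26 to 29.4%) on chromosome 21, 12.3% (6.62 to 21.8%) on chromosome 13 and 11.1% (6.85 to 17.5%) on chromosome 5, against 7.49% over all. At the low end were chromosome 10 with 4.84% (2.24 to 10.2%) and chromosome 2 with 5.45% (3.27 to 8.93%).

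Chromosome 11 was the single chromosome of 24 whose interval lay above the 7.49% of all lone sites, and none lay below it. These 24 intervals are not adjusted for their number. The position of chromosome 11 depended on the limits. With 10000 nt as the isolation distance its share was 11.6% (7.81 to 17.0%) against 7.13% over all lone sites, still above. With 50000 nt it was 10.3% (6.23 to 16.5%) against 7.77% over all, and with 100000 nt it was 8.00% (4.11 to 15.0%) against 7.75%. With a score of 25 or more it was 16.0% (11.3 to 22.2%) against 12.1%, and with 100 or more 6.29% (3.55 to 10.9%) against 4.87%. These last 4 intervals included the share over all lone sites.

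**Figure D4:**
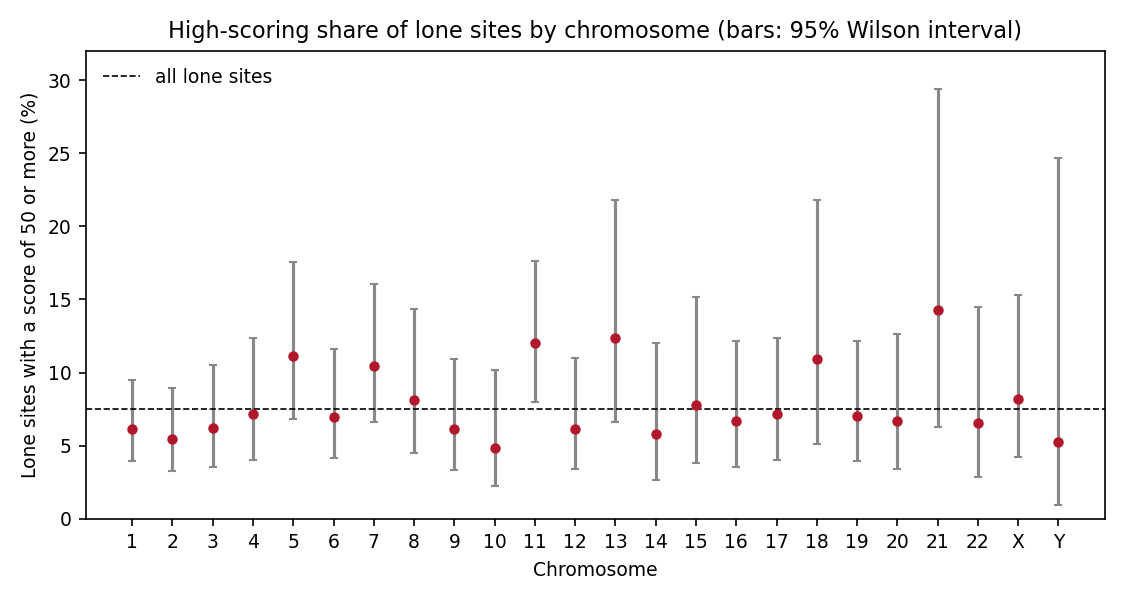
Share of each chromosome's lone sites that score 50 or more (vertical axis, %), with 95% Wilson intervals; the dashed line is the 7.49% of all lone sites. The interval of chromosome 11, from 7.98 to 17.6%, lies above the line, and those of the other 23 chromosomes include it.

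Per protein-coding gene, the isolated high-scoring sites were fewest on the gene-rich chromosome 19. There were 11 on its 1472 protein-coding genes, or 0.75 per 100 genes, the lowest value of any chromosome. Chromosomes 10 and 1 were close, at 0.82 and 0.88. Chromosome 13 had 2.80, chromosome 18 had 2.23 and chromosome 21 had 2.16, from 9, 6 and 5 sites. No interval was computed for these values, so their order is not shown to exceed counting error. Chromosome 19 was also lowest for the other lone sites, at 9.85 per 100 genes. The high-scoring sites made up 7.05% (3.98 to 12.2%) of its lone sites, near the 7.49% over all. The isolation rule leaves out sites that lie close together, and its effect on counts per gene was not tested. Per 100 Mb of annotated length, chromosome 19 came first for both, with 18.8 of the 243 and 248 of the others. Over the 22 autosomes these sites tracked protein-coding genes with a Pearson r of 0.75 and a Spearman rho of 0.84, and annotated length with r = 0.66 and rho = 0.74. For the other lone sites the values were r = 0.89 and rho = 0.91 with genes, and r = 0.80 and rho = 0.72 with length. These are descriptions over chromosomes that differ in size, and genes and length rise together; the smaller counts of the 243 sites also make their r less precise.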

How the data were processed

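Both libraries' labels name 1 deposited list of sites. The submitters' processing notes list Bowtie 1.1.2, cutadapt 1.13, FastQC 0.11.5 and the build hg19; per the site names, sites were called with rbsSeeker. The authors' deposited score is a whole number of at least 3; no source used here states its unit, the threshold, how multiply mapping reads were handled or how the libraries were pooled. Reads that match several copies of a small RNA could be placed at 1 copy, dropped or divided, which would move scores between sites. Read depth is unknown.

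The position of a site was the middle base of its interval, and distances were taken to the nearest listed site on either strand. The steps ran in Python 3.11.15 with scipy 1.17.1 and were tested on simulated sites. Shares have Wilson 95% intervals, differences of shares Newcombe intervals and two-sided Fisher's exact tests, adjusted by Benjamini-Hochberg over 2 shares. Protein-coding genes and annotated length (the end of the last protein-coding exon) per chromosome came from GENCODE on GRCh38, which needs no site coordinates. The sites to name were the 20 highest scores, the 5 most remote, those at the lowest score and the first 3 at the highest score under 50. The sites, groupings and tests were chosen with earlier results of these data known. Alternatives were isolation distances of 10000, 50000 and 100000 nt, scores of 25 and 100, and neighbours on the same strand only. The base at the site, the DRACH motif and annotation classes were not analysed here for want of hg19 sequence and genes.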

Additional observations from a re-analysis of the deposited data

How the results depend on the processing

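In 17 of 26 recomputed values the direction and the test outcome were as reported, or the value was within 1.5 times or the interval of the reported one. The number of sites, 243, was 392 with a score of 25 or more and 158 with 100 or more, as a lower or higher limit must give, and 162 to 255 under the other isolation distances and with neighbours on the same strand only. Their share of the summed score was 3.86% without the highest site, against 6.01%. The plus share, 52.3% and 0.08 points above the other lone sites, was 52.0%, 51.9% and 48.1% with isolation distances of 10000, 50000 and 100000 nt, each below the other lone sites (by 0.25, 0.38 and 4.26 points), with Fisher's exact p from 0.326 to 0.948 over its alternatives. The same-strand share of the nearest site, 53.1%, was 56.3% with a score of 100 or more and 65.7% for nearest sites within 50000 nt (a setting chosen after seeing the data), then above the other lone sites by 1.73 and 4.70 points, with Fisher's exact p from 0.515 to 0.721 over its alternatives. None of the tests passed the threshold of 0.05 under any setting run. The share on chromosome 11, recomputed after seeing the data, was 6.29 to 16.0% over its 5 alternatives, against 12.0%. The count of 17 judged this share only by the reported interval of 7.98 to 17.6%. With 50000 or 100000 nt, or a score of 25 or more, it therefore counted as kept. Its intervals under those settings nevertheless included the share over all lone sites. No paired analysis was possible because all samples form 1 group and share 1 value per site, which also prevents leaving out a replicate. Other settings for the base at the site, the motif and the annotation classes were not run. The depth is unknown, so a stretch without a listed site is not shown to be unbound, and isolation means only that no other site was listed.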
